A study of Homo sapiens with 4 samples.

Results

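The mitotic fraction of MCF10DCIS.com tumour cells comprised 435 of 4348 human barcodes: 206 of 2138 in the aged pool and 229 of 2210 in the young pool. MCF10DCIS.com is a human breast epithelial line that forms lesions resembling ductal carcinoma in situ. A barcode counted as human when at least 90% of its gene counts lay on human genes, with at least 2000 unique molecular identifiers (UMIs, counts of captured RNA molecules) and at most 20% mitochondrial UMIs. Members were the 10% of these barcodes, taken over both pools, with the highest share of human UMIs on CENPF, CCNB1, TOP2A and UBE2C. Those 4 genes therefore chose the cells, and their values are given as a description.

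In the aged group the line had been seeded on decellularised mammary extracellular matrix (dECM) from mice of 18 months or more, and in the young group on matrix from mice of 2 to 3 months. The labels also give each group its own batch, Pool-2 for aged and Pool-1 for young, so matrix age and batch cannot be told apart. The cell line, host genotype and schedule were shared. The seeded matrix was cultured for 12 days and implanted into Rag1-/- mice, a strain without mature lymphocytes of the T and B lineages. The tumour and the stroma beside it were taken 4 weeks later. The age is that of the matrix donor, and the labels give no age for the recipients. After dead cell removal and hashing-antibody labelling, each group gave 1 gene expression library by 10x 3' chemistry, so a pool is 1 sample and no p-value was computed. The labels tie no hashing tag to an animal or a tumour.

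Mitosis is driven by cyclin B with CDK1, and it ends when the anaphase-promoting complex (APC/C) marks cyclin B and securin for destruction. Transcripts of this machinery are repressed in quiescent and G1 cells by the DREAM complex and switched on in G2 by MYBL2, with MuvB, and by FOXM1. CENPF is a large kinetochore protein, CCNB1 is cyclin B1, TOP2A is the topoisomerase that untangles sister chromatids, and UBE2C is the ubiquitin-conjugating enzyme of the APC/C.

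Of the choosing genes, the promoters of CENPF and TOP2A are shown because promoters of this class are known for CCAAT boxes and for the cell cycle homology region, a DREAM contact site. On GRCh38 with GENCODE 29, CENPF lies at chr1:214603195-214664588 on the plus strand, CCNB1 at chr5:69167010-69178245 on the plus strand, TOP2A at chr17:40388516-40417950 on the minus strand and UBE2C at chr20:45812576-45816957 on the plus strand. The sequences are from RefSeq (GRCh38.p14), read in the direction of the gene, for the stretch of the 250 bases before the RefSeq start that lies outside the gene in GENCODE 29. That stretch is chr1:214602945-214603194 for CENPF and chr17:40417951-40418146 for TOP2A. Capitals mark the CCAAT letters, which read ATTGG from the other strand. They also mark TTTGAA, which reads TTCAAA from the other strand. The last letters marked are TTTAAA, the same on both strands.
CENPF: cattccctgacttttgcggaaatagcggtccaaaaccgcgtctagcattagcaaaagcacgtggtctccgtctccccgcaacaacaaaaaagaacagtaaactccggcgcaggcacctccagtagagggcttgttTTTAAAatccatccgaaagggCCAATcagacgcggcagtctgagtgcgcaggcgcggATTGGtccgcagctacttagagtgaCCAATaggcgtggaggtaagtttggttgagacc
TOP2A: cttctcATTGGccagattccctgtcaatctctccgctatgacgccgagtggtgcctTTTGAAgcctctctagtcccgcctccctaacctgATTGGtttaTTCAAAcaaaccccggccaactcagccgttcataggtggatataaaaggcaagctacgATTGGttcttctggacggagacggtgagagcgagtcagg
The 250-base CENPF window held CCAAT letters at 3 places and TTTAAA at 1 place. The TOP2A window held CCAAT letters at 4 places, the last of them nearer to the start than the printed stretch, and TTTGAA letters at 2 places. The CCNB1 window held CCAAT at 2 places and TTTAAA at 1 place, all within the gene as GENCODE 29 draws it. CCAAT letters on either strand occurred in 33.0% of all 27305 promoter windows of this length, and TTTGAA or TTTAAA in 22.1%. A match of letters is not evidence of binding.

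The aged and young libraries were of similar depth and held members at similar rates. Members made up 9.64% of human barcodes in the aged pool (exact binomial 95% interval 8.42 to 10.97) and 10.4% in the young pool (9.12 to 11.7). The intervals overlapped, and all intervals here cover counting error only. Median human UMIs were 45868 in members and 30521 in the remaining human barcodes of the aged pool, and 50381 and 31055 in the young pool. Members were thus 1.503-fold and 1.62-fold deeper, and this depth moves with every contrast between members and the rest. Its part was not tested. An alternative run kept only remaining barcodes at or above the members' lower quartile of depth, and its counts are not reported here. A Scrublet doublet score of 0.25 or more was held by 20 members (9.71%) against 111 remaining barcodes (5.75%) in the aged pool, and by 19 (8.30%) against 121 (6.11%) in the young pool. The libraries shared 190 barcode sequences, among them those of 3 aged and 0 young members.

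The score fell smoothly and had no gap at the limit. Members nearest the limit had 0.106% to 0.107% of their human UMIs on the 4 genes, and the nearest barcodes outside it had 0.104% to 0.106%. The highest member reached 0.727% in the aged pool and 0.703% in the young pool. No UMI of the 4 genes was seen in 1090 aged (51.0%) and 1137 young (51.4%) human barcodes. The members are thus a range of a continuous score.

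**Figure D1:**
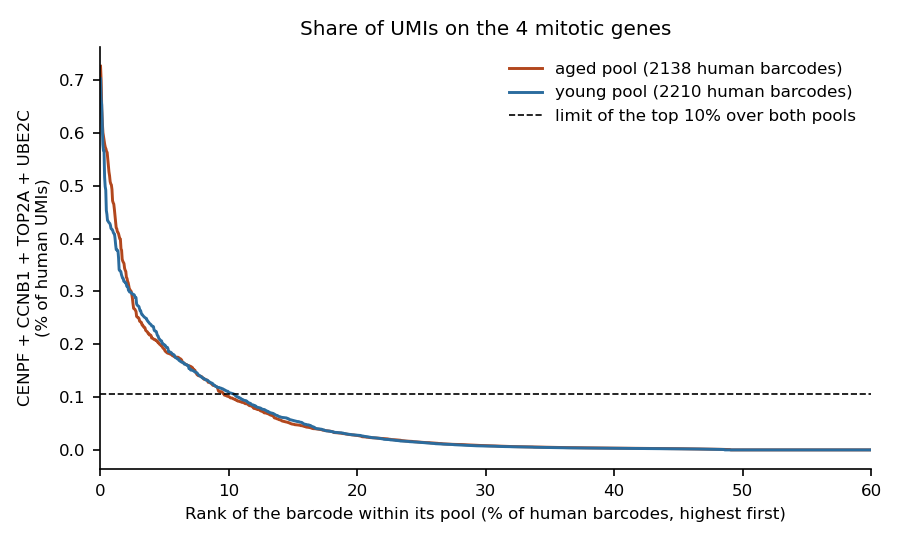
Share of human UMIs on CENPF, CCNB1, TOP2A and UBE2C (vertical axis, percent) for human barcodes ranked within their pool (horizontal axis, percent of human barcodes), with the aged pool in brown and the young pool in blue. The dashed line is the limit of the top 10% over both pools; both curves cross it near 10% without a step.

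All 4 choosing genes were abundant in members of both pools, as the choice requires. CENPF had 1268 CPM (the gene's UMIs summed over the cells of a set and scaled to a common total of human UMIs) in members and 70.9 CPM in the rest of the aged pool, and 1193 and 63.2 CPM in the young pool. CCNB1 had 444.9 CPM in members and 25.8 CPM in the rest of the aged pool, and 441.6 and 22.2 CPM in the young pool. The aged and young members lay close together for each gene.
TOP2A had 415 CPM in members and 20.1 CPM in the rest of the aged pool, and 403 and 18.3 CPM in the young pool. UBE2C had 292 CPM in members and 23.4 CPM in the rest of the aged pool, and 294 and 21.8 CPM in the young pool. All 4 genes were detected together in 180 of 206 aged and 189 of 229 young members. CENPF was the most abundant of the 4 in 188 aged and 204 young members, and it supplied 52.4% and 51.2% of their 4-gene UMIs, so the choice leans on it.

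When cells were chosen without a gene, that gene was still higher in the cells chosen by the other genes. The ratio was 15.2 (14.7 to 15.7) in the aged pool and 15.9 (15.4 to 16.4) in the young pool for CENPF, and 15.3 and 16.9 for CCNB1. It was 19.5 and 19.9 for TOP2A and 11.4 and 10.1 for UBE2C. With every cell thinned to 2000 human UMIs, CENPF was detected in 86.9% of members and 7.77% of the rest in the aged pool, and in 82.5% and 6.88% in the young pool. The unthinned shares were 99.5% and 29.6% in the aged pool and 99.1% and 27.8% in the young pool. Mouse barcodes, which should lack the human gene, had a CENPF UMI in 0.990% and 0.862% of cases at a median of 68 and 71 human UMIs, far shallower than human barcodes.

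Another 10 mitotic genes had no part in the choice. All 10 were at least 1.5-fold higher in members in both pools, with median log2 ratios of 4.03 and 4.08. However, 8 of them were under 20 CPM in the rest and passed the minimum level through the members, so they had to be higher. The count is therefore a description and no check of the label. MKI67, the proliferation antigen that coats mitotic chromosomes, had 529 CPM in members and 44.9 CPM in the rest of the aged pool, and 488 and 42.1 CPM in the young pool. Of the 13 human immune, endothelial and fibroblast markers, 5 had a UMI in aged members and 7 in young members. PECAM1, COL1A1 and CD68 held most of these UMIs, while PTPRC, CD3E, LYZ, TYROBP and DCN were at 0 in members of both pools. The summed level of the 13 was 20.5 CPM in members and 21.5 CPM in the rest of the aged pool, and 17.6 and 22.6 CPM in the young pool. The sum covers opposite differences. PECAM1 (CD31) had 10.1 CPM in members and 4.82 CPM in the rest of the aged pool, and 8.998 and 4.10 CPM in the young pool. CD68, a lysosomal protein of macrophages, had 1.15 CPM in members and 8.40 CPM in the rest of the aged pool, and 1.63 and 10.7 CPM in the young pool.

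Across the transcriptome, 800 of 5896 measured genes (13.6%) were at least 1.5-fold higher in members than in the rest in both pools, and 214 (3.63%) were lower. At 2-fold, 276 (4.68%) were higher and 75 (1.27%) lower. Measured genes had 20 CPM or more in the set where they were higher, and 100 UMIs or more. The median of all measured genes was itself shifted, to log2 0.24 in the aged and 0.23 in the young pool. Scaled by median-of-ratios, which removes that shift, 335 genes were higher and 473 lower, so the split between directions depends on the scaling. Without the barcodes found in both libraries the unscaled counts were 810 and 223. The minimum level also bears on the list counts. A gene that is low in the rest was measured only if it was high in members, so it had to differ. The same held the other way for a gene that is low in members. Because the rule chose these cells, the contrast describes them and is no test.

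The mitotic kinases and their cofactors were higher in members where they were measured. Of the 17 genes of the list 14 were measured and stood apart (median log2 3.72 and 3.83), but 13 of these lay under 20 CPM in the rest and so passed the minimum through the members. The other 3 were not measured: PLK4, the kinase of centriole duplication, had 16.4 CPM in members and 2.94 CPM in the rest of the aged pool, and 13.4 and 2.66 CPM in the young pool. BORA, the PLK1 activator, and MASTL, the kinase that restrains the phosphatase PP2A, had 13.9 and 9.88 CPM in aged members. PLK1, which drives mitotic entry and spindle assembly, had 106 CPM in members and 4.47 CPM in the rest of the aged pool, and 104 and 3.54 CPM in the young pool. The ratio was 23.7 (20.97 to 26.8) and 29.5 (25.9 to 33.8). AURKA, the kinase of centrosomes and spindle poles, was 18.8-fold and 24.7-fold higher, and the centrosomal kinase NEK2 21.4-fold and 24.8-fold. AURKB, the kinase of the chromosomal passenger complex, was 8.53-fold and 9.91-fold higher.

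Among cyclins, CDK1 and their regulators, 9 of 10 stood apart upward, against 13.6% of all measured genes. However, 6 of the 10 lay under 20 CPM in the rest and so passed the minimum through the members. The phosphatase CDC25C, which activates CDK1, had 27.6 CPM in members and 1.64 CPM in the rest of the aged pool, and 26.0 and 1.47 CPM in the young pool. CCNB2 (cyclin B2) was 13.7-fold and 15.3-fold higher, and CCNA2 (cyclin A2) 13.6-fold and 15.8-fold. WEE1, the kinase that holds CDK1 inactive, was the exception, with 80.9 CPM in members and 90.4 CPM in the rest of the aged pool, and 83.0 and 81.8 CPM in the young pool.

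Of 33 spindle genes 33 were measured and higher (medians 3.28 and 3.34), 22 of them under 20 CPM in the rest. Of 24 kinetochore genes 21 were measured and higher (2.85 and 2.96), 19 of them under 20 CPM in the rest, and SPC24, DSN1 and SKA3 were not measured. KIF20A, the kinesin that carries passenger proteins to the central spindle, was 21.7-fold and 31.5-fold higher. DLGAP5 and ASPM, which organise spindle microtubules and poles, were 21.4-fold and 21.2-fold higher in the aged pool and 23.6-fold and 22.0-fold in the young pool. CENPA, the centromeric histone, had 117 CPM in members and 5.80 CPM in the rest of the aged pool, and 108 and 4.41 CPM in the young pool. The list's lower end was CENPU, an inner kinetochore gene, at 2.47-fold and 2.17-fold. Against the replicating cells defined below, 31 of 33 spindle and 15 of 21 kinetochore genes were higher. CENPU was lower there, with 46.1 CPM in members and 59.9 CPM in replicating cells of the aged pool, and 41.7 and 67.8 CPM in the young pool.

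Other mitotic lists were mixed, and part of each passed the minimum through the members. Under 20 CPM in the rest were 3 of 11 checkpoint, 7 of 11 cytokinesis and 7 of 23 condensin genes. Over all measured genes 13.6% were higher. Of 11 checkpoint and APC/C genes, 9 were higher: CDC20, the APC/C activator, 13.8-fold and 15.4-fold, and securin (PTTG1) 8.07-fold and 8.42-fold. The APC/C subunit ANAPC11 was 1.36-fold and 1.42-fold. Of 11 cytokinesis genes, 7 were higher, led by the abscission gene CEP55 (14.2-fold and 16.7-fold), while the general cytoskeletal genes RHOA, MYH9 and ANXA11 lay between 0.930 and 1.32. Of 23 condensin, cohesin and chromosome structure genes, 22 were higher, and the cohesin subunit STAG2 was not (0.957 and 0.995). Fewer were higher than in replicating cells: 5 of 11 checkpoint and 13 of 23 condensin genes, with 7 of 11 cytokinesis genes. Over all genes measured in that comparison 5.12% were higher. Among 16 mitotic transcription factor and DREAM genes only 6 were measured, 4 of them under 20 CPM in the rest. In this list 4 were higher than in the rest (3 with median-of-ratios scaling), with medians of 0.82 and 0.80. Against the replicating cells defined below the list medians were -0.03 and -0.03. FOXM1, the transcription factor of late cell cycle genes, led the list at 6.80-fold and 6.57-fold higher than in the rest.

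By a fixed ranking on the pool nearer to 0, the 20 highest genes outside the rule were PIF1, PLK1, KIF20A, NEK2, DLGAP5, ASPM, HMMR, KIF14, CENPA, KIF2C, DEPDC1, AURKA, BUB1, CENPE, CDC25C, FAM83D, NUF2, TPX2, CDCA3 and KNL1. PIF1, a DNA helicase, led with 48.1 CPM in members and 0.901 CPM in the rest of the aged pool, and 42.7 and 1.001 CPM in the young pool. Of the 16 of these genes with a RefSeq promoter window, 12 held CCAAT letters, 10 held TTTGAA or TTTAAA, and 9 held both kinds, against 7.85% of all windows for both kinds. The 10 lowest were MMP1, LCE3D, MMP10, MMP9, S100A7, ANGPTL4, S100A8, IGFL1, AKAP12 and BMP2, with matrix metalloproteinases and genes of squamous differentiation among them. S100A7 (psoriasin) had 15.0 CPM in members and 174 CPM in the rest of the aged pool, and 42.8 and 340.3 CPM in the young pool.

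**Figure D2:**
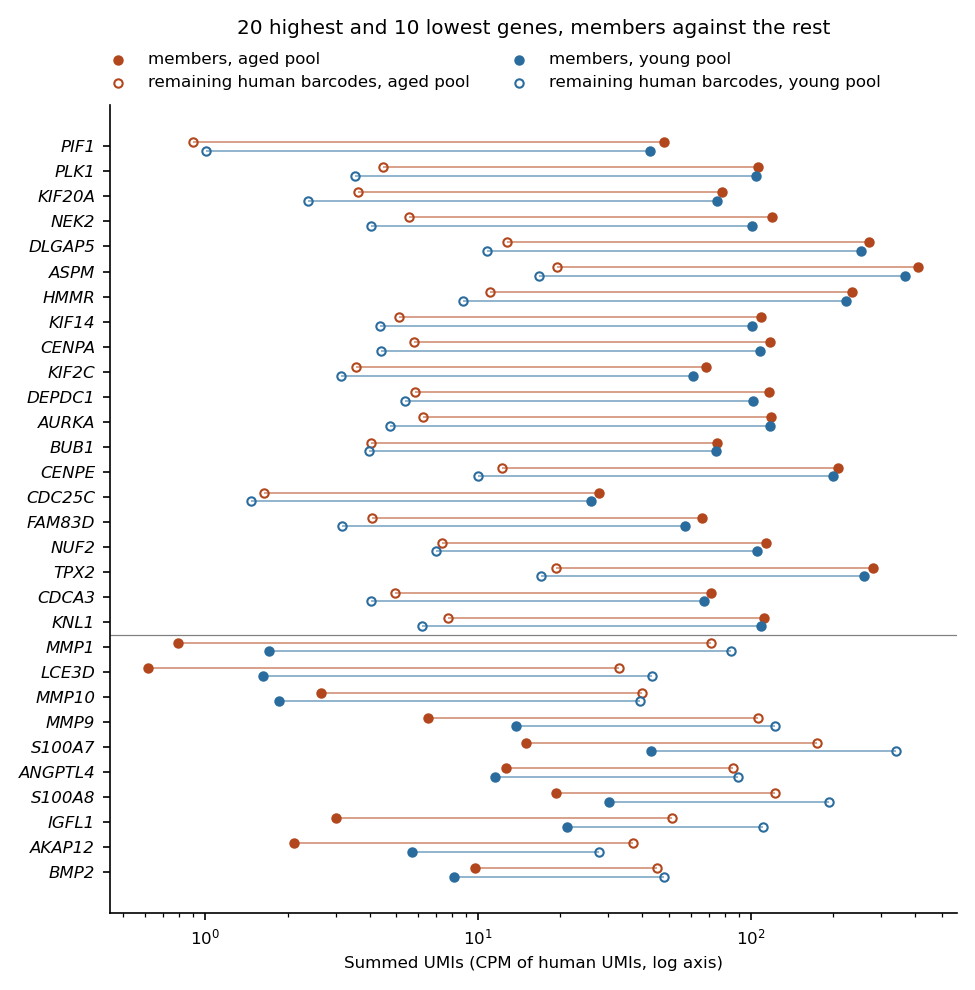
Summed level (horizontal log axis, CPM of human UMIs) of the 20 highest and, below the line, the 10 lowest genes in members (filled) and remaining human barcodes (open) of the aged (brown) and young (blue) pools. Filled points lie right of open points for every gene above the line and left of them below it.

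Replication genes were present but not at the level of replicating cells. Of 24 measured replication genes, 12 were higher in members than in the rest (8 with median-of-ratios scaling) and 1 lower. The medians were 0.61 and 0.67. Under 20 CPM were 5 of the 24 in the rest and 3 in members. The replicating cells used for comparison were the 435 barcodes outside the members with the highest share of UMIs on PCNA, MCM2, MCM5, MCM6 and GINS2. Against them 301 of 5881 measured genes (5.12%) were higher in members and 111 (1.89%) lower, in both pools. Of 31 measured replication genes, 0 were higher and 26 lower; PCNA, MCM2, MCM5, MCM6 and GINS2 are in that list, so its direction is partly set by the choice. UNG, a uracil glycosylase of replicating DNA, had 9.26 CPM in members and 56.4 CPM in replicating cells of the aged pool, and 9.23 and 53.03 CPM in the young pool. Among members, 16 aged (7.77%) and 15 young (6.55%) were also in the top 10% by the replication score.

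Genes of cell cycle arrest differed among themselves. CDKN1A (p21), the p53-induced inhibitor, had 72.7 CPM in members and 131 CPM in the rest of the aged pool, and 60.5 and 135 CPM in the young pool. GADD45A, a stress gene under p53, was at 0.489 and 0.494 of the rest. CDKN3, a phosphatase that acts on CDKs and is listed with the inhibitors, was 9.95-fold and 12.3-fold higher. In all, 2 of 13 CDK inhibitor and p53 target genes were higher than in the rest and 5 lower. Against the replicating cells 2 of 13 were higher and 0 lower, with medians of 0.13 and 0.09, so the lower values were not particular to members.

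Basal, matrix, hypoxia and inflammatory genes were lower than in the rest or level. Most of these differences were not seen against the replicating cells. There 1 of 19 measured basal genes, 0 of 16 matrix genes and 0 of 21 hypoxia genes were lower, and 4 hypoxia genes were higher. NF-kB genes were the exception, with 8 of 15 lower than in replicating cells. With median-of-ratios scaling the lower counts were 13 basal, 14 matrix, 13 hypoxia and 12 NF-kB genes. Unscaled, 3.63% of all measured genes were lower. Genes under 20 CPM in members of at least 1 pool passed the minimum there through the rest, so they had to be lower. They numbered 2 basal, 6 matrix, 4 hypoxia, 3 NF-kB and 3 senescence genes, COL17A1 and MMP1 among them. Unscaled, of 20 basal and myoepithelial genes 0 were higher and 7 lower: COL17A1, a collagen of hemidesmosomes, had 9.88 CPM in members and 41.5 CPM in the rest of the aged pool, and 7.14 and 52.2 CPM in the young pool. The basal keratin KRT5 was level within 1.5-fold (1.21 and 1.31). Of 21 matrix and invasion genes 10 were lower and 0 higher, the collagenase MMP1 most, with 0.794 CPM in members and 71.6 CPM in the rest of the aged pool, and 1.71 and 84.2 CPM in the young pool. That rested on 9 member UMIs in the aged and 22 in the young pool. Replicating cells were also low in MMP1, at 2.27 CPM in the aged and 5.57 CPM in the young pool. MMP1 was too low in both sets to be measured in that comparison, so it is not among the 16 matrix genes. Members lay at 0.350 (0.146 to 0.759) of replicating cells in the aged pool and 0.306 (0.180 to 0.502) in the young pool.
Of 25 hypoxia and glycolysis genes 10 were lower and 0 higher. NDRG1, a hypoxia-induced gene, was at 0.333 and 0.270 of the rest, while the glycolytic enzyme ENO1 was at 1.29 and 1.24. Of 15 NF-kB and cytokine genes 8 were lower and 0 higher, ICAM1 at 0.335 and 0.293. Of 12 senescence-associated genes 9 were lower than in the rest. The 2 higher ones included LMNB1, the lamin whose loss marks senescence, at 6.77-fold and 6.39-fold. Against the replicating cells 9 genes of this list were measured, with 1 higher and 1 lower.

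Ribosomal protein genes did not stand apart in either direction (0 of 27), with medians of -0.23 and -0.20. Of 34 oxidative phosphorylation genes 1 was higher, CYCS (cytochrome c), with list medians of 0.14 and 0.21 that turn to -0.11 and -0.02 with median-of-ratios scaling. Of 31 immediate early and stress genes 1 was higher, the chaperone HSP90AA1 (1.80-fold and 1.99-fold), and 4 lower (13 with median-of-ratios scaling), among them the phosphatase DUSP1 (0.630 and 0.594).

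Over bins of the 4-gene share, mitotic genes climbed and replication genes peaked outside the members. MKI67 had 1.53, 7.85, 126, 381 and 689 CPM in the aged pool, from barcodes with none of the 4 genes, through the lower and upper part of the remaining barcodes, to the lower and upper part of the members. In the young pool it had 1.76, 6.40, 134, 319 and 658 CPM. PCNA, the replication clamp, had 20.9, 44.0, 118, 69.8 and 53.4 CPM in the aged pool and 18.4, 47.0, 136, 81.8 and 52.8 CPM in the young pool.
Its highest bin was thus the upper part of the remaining barcodes. CDKN1A declined over the same bins, 161, 128, 97.4, 84.9 and 59.5 CPM in the aged pool and 165, 140, 88.8, 71.5 and 49.5 CPM in the young pool. The bins also differed in depth, with medians of 48691.5 UMIs in the highest and 23878.5 in the lowest aged bin.

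**Figure D3:**
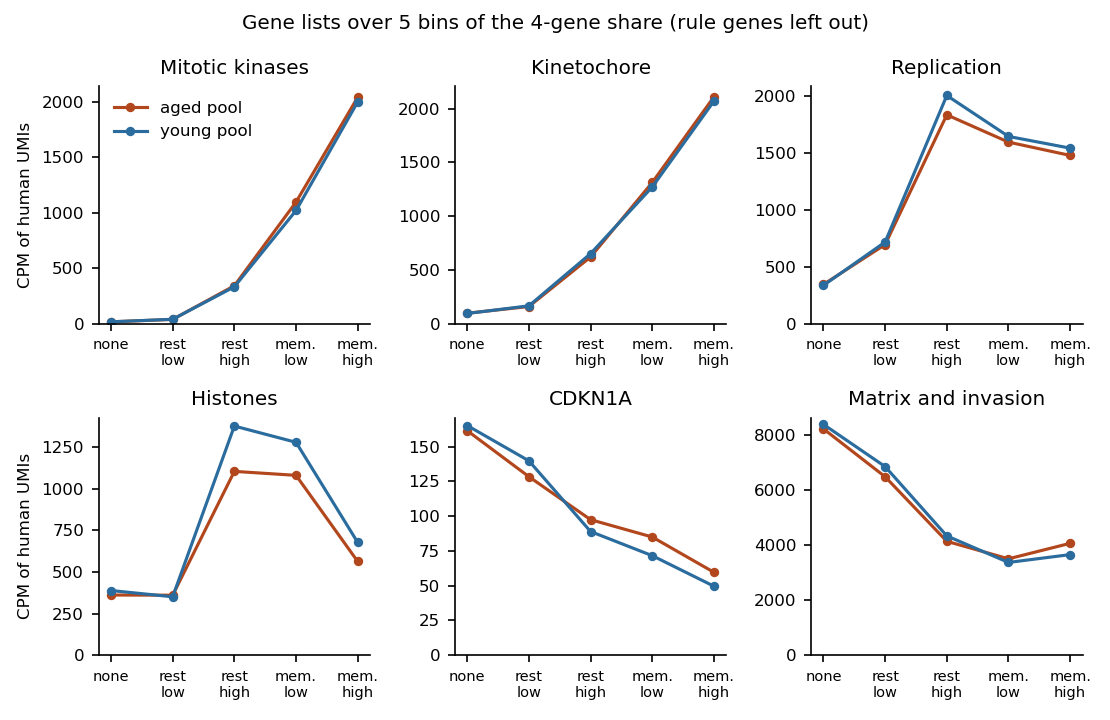
Summed level (vertical axes from 0, CPM of human UMIs) of 5 gene lists and CDKN1A over 5 bins of the 4-gene share: barcodes with none of the 4 genes, lower and upper part of the remaining barcodes, lower and upper part of the members, in the aged (brown) and young (blue) pools. Kinase and kinetochore genes climb to the last bin, replication and histone genes are highest in the third, and CDKN1A declines throughout.

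Members were not uniform. Split into 3 parts by how much of their 4-gene UMIs CENPF supplied, CDK1 had 156, 114 and 40.6 CPM from the low to the high CENPF part in the aged pool (66, 69 and 71 barcodes), and 148, 129 and 35.8 CPM in the young pool (79, 76 and 74). The nuclear import receptor KPNA2 had 461, 407 and 202 CPM in the aged pool and 459, 412 and 205 CPM in the young pool. Both genes were lowest in the high CENPF part of both pools. MKI67 ran the other way from the low part, with 416, 562 and 612 CPM in the aged pool and 353, 580 and 560 CPM in the young pool. The high CENPF part was also the shallowest, at a median of 33459 UMIs in the aged pool against 60776 in the middle part.

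Between the pools, the members differed in few genes. Of 5998 measured genes, 14 (0.233%) were at least 1.5-fold higher in aged members than in young members and 10 (0.167%) lower, and the median of all genes was 0.03. In the remaining human barcodes 2 of 5310 genes (0.0377%) were higher and 10 (0.188%) lower. None of the measured genes of the cyclin, kinase, checkpoint, kinetochore, spindle, cytokinesis or condensin lists stood apart between the pools' members. At these shares over all genes few or none would be called in lists of this size, so that count says nothing particular about mitotic genes. Without the barcodes found in both libraries 12 genes were higher and 10 lower in aged members. Without barcodes of tag H-HTO-2 the counts were 19 higher and 20 lower, and without H-HTO-4 38 and 23. With 1 library a group, matrix age cannot be told apart from any other difference between the libraries.

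Of those 24 genes, 13 had 10% or more of their member UMIs in 1 barcode. IFIT2, an interferon-induced gene, had 22.6 CPM in aged members and 0.853 CPM in young members, but 91.0% of its UMIs came from 1 barcode. ISG15, another interferon-induced gene, had 48.9% in 1 barcode.

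The other 11 genes held a smaller share of their member UMIs in any single barcode. It ran from 0.0214 for MXD1 to 0.0919 for EMP3, with HIST1H1B at 0.0861. Whether these genes stay apart without their leading barcode was not tested. S100B, a calcium-binding protein, had 48.8 CPM in aged members and 28.3 CPM in young members, a ratio of 1.72. VCAN, the proteoglycan versican, had 51.7 CPM in aged members and 32.0 CPM in young members. NR4A2, an immediate early nuclear receptor, had 131 CPM in aged members and 85.6 CPM in young members.
The other 4 higher genes were ZBTB8A, DUSP8, EMP3 and MXD1; EMP3 was lower in aged members (log2 -0.31) without tag H-HTO-2. Among the lower genes, the linker histone HIST1H1E had 30.8 CPM in aged members and 50.7 CPM in young members, and HIST1H1B 12.97 and 21.02 CPM. Histone genes have near-identical copies and mostly lack poly(A) tails, so their counts are uncertain. S100A8, a calprotectin subunit, had 19.3 CPM in aged members and 30.2 CPM in young members, with 123 and 193 CPM in the remaining barcodes. The last was CA2, a carbonic anhydrase, with 25.2 CPM in aged members and 40.1 CPM in young members. With the top 20% of barcodes as members, CA2 (0.04) and S100A8 (0.53) had log2 ratios above 0.

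**Figure D4:**
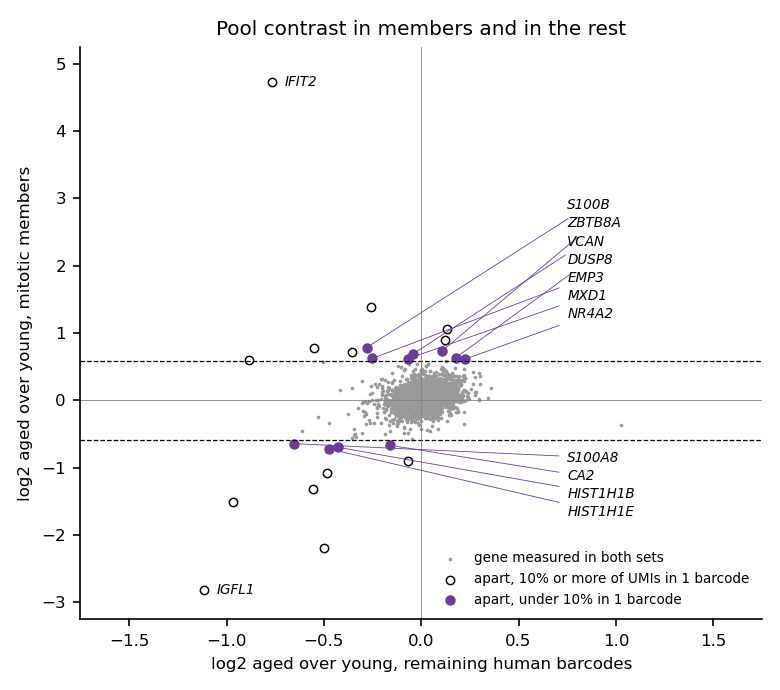
Log2 ratio of aged over young in members (vertical axis) against the same ratio in remaining human barcodes (horizontal axis), 1 point per gene. Dashed lines mark 1.5-fold; open circles are the 13 genes with 10% or more of their member UMIs in 1 barcode, IFIT2 highest among them, and purple points are the other 11.

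Hashing tags gave a partial view of spread within a pool. No single tag was given to 1120 of 2138 aged and 1280 of 2210 young human barcodes. Members made up 9.91% and 9.22% of these, the young value below all young tag sets. Members made up 7.84% of barcodes with tag H-HTO-2, 11.4% with H-HTO-3 and 11.8% with H-HTO-4 in the aged pool, and 14.4% with H-HTO-3, 10.6% with H-HTO-4 and 10.8% with H-HTO-6 in the young pool. The ranges of the pools overlapped. Among the 14 higher genes 1 (ZBTB8A) had every aged tag set above every young tag set, and among the 10 lower genes 2 (HIST1H1E and IGFL1) had every aged set below, against 4.93% and 3.67% of all measured genes. IGFL1 had 63.7% of its member UMIs in 1 barcode.

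**Figure D5:**
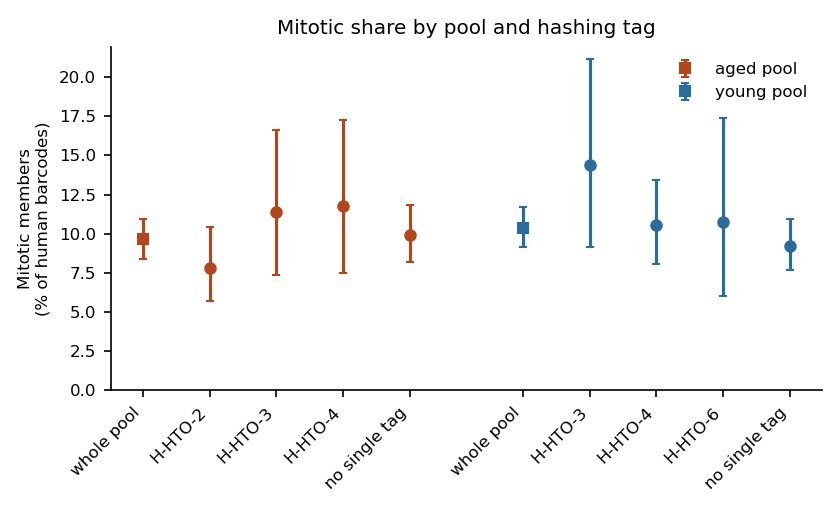
Share of human barcodes that were mitotic members (vertical axis from 0, percent) by pool and hashing tag, aged in brown and young in blue. Squares are whole pools, circles are tag sets and barcodes without a single tag, and bars are exact binomial 95% intervals of counting error. Tag sets run from 7.84% to 11.8% in the aged pool and from 10.6% to 14.4% in the young pool, and their intervals overlap.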

How the data were processed

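Single-cell 3' gene expression and hashing libraries of tumour and stroma were deposited as UMI count matrices. Per the submitters' processing notes the authors made these counts with Cell Ranger 6.0.0 on GRCh38 and mm10; the file headers name the same version, and further settings are not given in the sources used here. Human barcodes were chosen by purity (90%), depth (2000 UMIs) and mitochondrial share (20%). UMIs were summed per set and pool and scaled to CPM of human UMIs. A gene was measured at 20 CPM and 100 UMIs and stood apart at 1.5-fold, in both pools for members against the rest. Intervals are exact (95%; Poisson, conditional binomial for ratios, Clopper-Pearson for shares). With 1 library a group no test was run. The members and the 31 gene lists were chosen with earlier results of these data known. Named genes are the choosing genes and MKI67, the 20 highest and 10 lowest ratios, pool differences with under 10% of UMIs in 1 barcode, and up to 3 members at each end of a list; genes outside these were chosen after their values were seen. Scrublet in scanpy 1.11.5 scored doublets, which were kept. Barcodes were given a tag if the leading tag had 10 or more counts and at least 3 times the runner-up. Sums and ratios were tested on counts simulated with Poisson error only. The simulation held no excess from single barcodes, so it does not cover that spread. Python 3.11.15, numpy 2.4.6, scipy 1.17.1 and pandas 2.3.3 were used. Some genes named by these rules are not reported here.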

Additional observations from a re-analysis of the deposited data

Results flagged for a closer look

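For several genes the ratio of aged over young lay above 0 on the log2 scale in members and below 0 in the remaining human barcodes. The difference was not tested because each pool is 1 library. S100B had 0.78 in members and -0.28 in the rest. EMP3 had 0.62 in members and -0.25 in the rest, but without the barcodes of tag H-HTO-2 it had -0.31 in members. VCAN had 0.69 in members and was about level in the rest at -0.04, a ratio of 0.971 with a counting interval of 0.932 to 1.01. MXD1 had 0.62 in members and -0.07 in the rest, within the range of -0.12 to 0.13 that held the middle 90% of all genes there.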

How the results depend on the processing

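The share of members by pool, the counts of genes apart and the same counts over all list genes together were read under 24 alternatives. Each alternative was read only for the results it bears on, so no result was read under every one. The kinase, spindle and kinetochore lists were not read one by one. No paired analysis was possible because each group has 1 library. Of the single genes named for members over the rest, none changed direction in both pools in any alternative run. A gene whose pools differed in sign was read as 0, so a change in 1 pool alone would not show. These genes were the extremes of the same data, so a change of direction was unlikely from the outset. Their sizes did shift: 239 values left the counting interval of the main run and 241 stayed within it. With the top 5% chosen, 217 members made up 4.86% of aged and 5.11% of young human barcodes; 61 genes were higher and 18 lower in aged members, among them 19 and 8 list genes. With the top 20%, 870 members made up 19.9% and 20.1%; 3 genes were higher and 5 lower, with 2 and 2 list genes, and CA2 (0.045) and S100A8 (0.53) turned to higher in aged members. Thinning cells before scoring gave 11.9% and 12.7% members, 6 genes higher between pools, and 3 and 1 list genes. Lower list genes between pools numbered 3 without Scrublet scores of 0.25 or more and 3 at a mitochondrial limit of 10%. At a purity of 98% 24 genes were higher and 19 lower between pools, with 12 list genes lower. With 1 hashing tag required, 195 members gave 25 higher, 34 lower and 14 lower list genes. For members over the rest, median-of-ratios scaling gave 335 higher and 473 lower genes and 94 lower list genes; TMM scaling gave 348, 460 and 92. With no CPM minimum 1450 genes were higher and 722 lower in members, and 83 and 48 between pools (11 and 12 list genes). At 100 CPM the counts were 234 and 71 in members, with 68 and 32 list genes, and 2 and 0 between pools, with 0 and 0 list genes. With cells weighted equally 27 genes, 10 of them list genes, were higher in aged members. At 2-fold 276 genes were higher and 75 lower in members, with 30 lower list genes, and 3 and 5 between pools, with 3 and 2 list genes. Against barcodes with none of the 4 genes 1528 were higher and 440 lower. Alternatives added after seeing the data left out shared barcodes or a tag. Without H-HTO-2, 20 genes were lower in aged members and EMP3 turned to -0.31; without H-HTO-4, 38 were higher, with 12 list genes, and 23 lower. The causes were not tested.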
